A study of Mus musculus with 28 samples.

Results

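The genes described here are 10 mouse immediate early genes, Fos, Fosb, Jun, Junb, Jund, Egr1, Atf3, Ier2, Ier3 and Zfp36, followed over 28 arrays in 13 sample groups, with the slides that carried sorted and isolated liver cells shown apart. Members were every probe whose gene name in the scanner files was 1 of the 10. That gave 13 probes for the 10 genes, of 41174 probes and 28034 gene names on the array. All 10 genes passed the filter on dim probes, as did 21070 genes in all. Junb, Ier2 and Zfp36 had 2 probes each, and the brighter one stands for the gene.

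Immediate early genes are transcribed within minutes of a stimulus such as a growth factor, a cytokine, tissue dissection or enzyme digestion, without new protein synthesis. Fos and Jun family proteins pair through leucine zippers to form the AP-1 transcription factor, Egr1 is a zinc finger transcription factor, and Zfp36 (tristetraprolin) shortens the life of transcripts with AU-rich elements, among them several immediate early and cytokine transcripts. In liver, Jun and Atf3 are known for their part in regeneration and stress responses, and raised AP-1 transcripts are a well-known sign of warm enzymatic dissociation in single-cell work.

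All samples came from C57BL/6 mice or cultures from them, and the labels give no age, sex or dose. The organoid groups were liver organoids kept in differentiation medium (DM, 1 array, no replicate) and in expansion medium (EM, 2 arrays), in cultures that the labels derive from single Lgr5 cells. The cell groups were Lgr5-sorted cells taken 6 days after carbon tetrachloride (CCl4, a hepatotoxin), duct cells sorted for the surface antigen Mic1-1c3, and the hepatocyte fraction of an isolation, with 2 arrays each. The tissue groups were muscle, white adipose tissue and brown adipose tissue (3 arrays each), pancreas (2), whole liver (2), adult liver (2), and livers 3 and 13 days after CCl4 (2 each). Sample RNA was labelled with Cy3 and hybridised beside a common Stratagene mouse reference RNA labelled with Cy5. A level below is the log2 ratio of sample over reference on 1 array, and a difference is a fitted log2 difference between groups ± its standard error. The standard error uses a spread per gene pooled over all 13 groups, so it does not measure the spread of the compared arrays alone. A gene was called where its adjusted p was below 0.05 and its difference was at least 1. In whole tissues and mixed fractions, fewer cells of a type and less RNA per cell cannot be told apart.

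Slides 1 and 2 each held 1 array of the Lgr5-sorted cells, the sorted duct cells, the hepatocytes and the whole liver, so that replicate number and slide are the same thing for these 4 groups. Between 17.8% and 69.1% of probes were well above background in Cy3 per array. The Lgr5-sorted arrays were dim, with 21.5% on slide 1 and 18.5% on slide 2, against 57.9% and 39.6% for sorted duct cells and 45.6% and 35.5% for whole liver. Sorted duct cells had the bile duct genes Krt19 (log2 ratios 3.72 and 2.30) and Epcam (2.18 and 1.23) above background, while neither was above background in the Lgr5-sorted cells. Nor was Lgr5 itself above background in the Lgr5-sorted cells (0.07 and 0.24), which instead had high levels of the Kupffer cell genes Cd5l (11.54 and 9.99) and Marco (8.55 and 6.38). The Lgr5-sorted group is therefore called by its label only. Both sorted groups also held endothelial transcripts, with Cdh5 at 4.71 and 4.81 in Lgr5-sorted cells and at 3.60 and 5.22 in sorted duct cells. The endothelial list as a set was uneven in Lgr5-sorted cells, averaging 1.32 and 3.35, against 1.82 and 1.72 in whole liver. Of its 10 genes, 1 was called higher in Lgr5-sorted cells than in whole liver, where 12% of all genes were.

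RefSeq promoter windows, running from 250 bases before to 50 bases after the annotated start in GRCm38.p6, were at hand for 8 of the 10 genes, all but Egr1 and Ier2. They are shown as background on the members, and their part in the levels described here was not tested. In the 5 printed here, capitals mark letters found by a search on both strands: TATAAA, the core promoter box, TGACG, the start of a cyclic AMP response element (CRE), TGACATCA (the variant AP-1 site known from the Jun promoter) and the core of the serum response element. The CRE start and the variant were chosen with the windows in view. The windows are chr12:85473640-85473939 on the plus strand for Fos, chr7:19309996-19310295 on the minus strand for Fosb, chr4:95052173-95052472 on the minus strand for Jun, chr1:191183284-191183583 on the minus strand for Atf3 and chr7:28379179-28379478 on the minus strand for Zfp36.
Fos: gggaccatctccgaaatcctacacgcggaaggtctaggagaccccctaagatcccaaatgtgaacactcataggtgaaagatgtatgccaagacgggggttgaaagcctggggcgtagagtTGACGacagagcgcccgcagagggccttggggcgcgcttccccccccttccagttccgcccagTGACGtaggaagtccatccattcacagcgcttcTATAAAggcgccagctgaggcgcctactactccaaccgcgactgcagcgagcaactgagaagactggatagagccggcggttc
Fosb: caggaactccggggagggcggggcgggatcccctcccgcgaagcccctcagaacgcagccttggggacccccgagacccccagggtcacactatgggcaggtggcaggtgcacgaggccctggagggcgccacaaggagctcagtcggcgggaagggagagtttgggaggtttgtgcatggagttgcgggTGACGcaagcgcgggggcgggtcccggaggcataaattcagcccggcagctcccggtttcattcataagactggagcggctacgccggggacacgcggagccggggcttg
Jun: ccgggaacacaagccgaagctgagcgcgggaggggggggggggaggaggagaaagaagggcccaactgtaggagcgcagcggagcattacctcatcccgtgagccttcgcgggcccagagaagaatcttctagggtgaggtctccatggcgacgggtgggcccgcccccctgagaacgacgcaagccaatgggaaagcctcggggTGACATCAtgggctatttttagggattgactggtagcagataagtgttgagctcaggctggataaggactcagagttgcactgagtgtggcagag
Atf3: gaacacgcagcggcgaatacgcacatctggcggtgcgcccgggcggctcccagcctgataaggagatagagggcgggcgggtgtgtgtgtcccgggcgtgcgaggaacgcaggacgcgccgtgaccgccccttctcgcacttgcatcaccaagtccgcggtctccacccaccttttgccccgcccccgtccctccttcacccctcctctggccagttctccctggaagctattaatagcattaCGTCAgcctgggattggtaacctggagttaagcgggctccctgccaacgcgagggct
Zfp36: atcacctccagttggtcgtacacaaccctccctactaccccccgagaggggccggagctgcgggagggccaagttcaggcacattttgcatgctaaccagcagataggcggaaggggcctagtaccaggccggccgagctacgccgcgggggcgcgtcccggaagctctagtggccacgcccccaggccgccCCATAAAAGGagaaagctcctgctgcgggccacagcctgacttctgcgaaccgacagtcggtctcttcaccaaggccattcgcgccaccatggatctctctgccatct
TGACG stood in 4 of the 8 windows (Fos, Fosb, Junb and Atf3) and in 20.8% of all 32851 windows. In Fos its copies began 129 and 66 bases before the start, in Fosb 60 bases before it, and in Atf3, on the opposite strand, 7 bases before it. TATAAA stood in Fos and Junb, 2 of the 8, and in 13.6% of all windows. It began 33 bases before the start in Fos, but at the annotated start itself in Junb. The serum response element core stood in Zfp36, 58 bases before its start, and in 1.63% of all windows, and TGACATCA stood in Jun, 45 bases before its start, and in 3.62%. The full CRE (TGACGTCA, which holds TGACG on both strands), the AP-1 site TGACTCA and the EGR1 site GCGTGGGCG were in none of the 8 windows, against 1.79%, 5.2% and 0.612% of all windows. These matches describe letters in short windows and no binding was measured. The windows reach 250 bases before the start, so sites further upstream, and any in Egr1 or Ier2, were not searched.

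All 10 immediate early genes rose in sorted duct cells, whether set against isolated hepatocytes or against whole liver. Against hepatocytes, 10 of 10 members were called higher, where 11.9% of all 21070 genes were, and their median difference was 4.55 against 0.00 for all genes. Set against whole liver, 10 of 10 were again called higher, where 11% of all genes were, with a median difference of 4.61 against 0.01. These comparisons share the sorted duct arrays. Sorted duct cells ranked first of the 13 groups for 10 of the 10 genes, and the share of all genes with this rank was not computed.

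**Figure D1:**
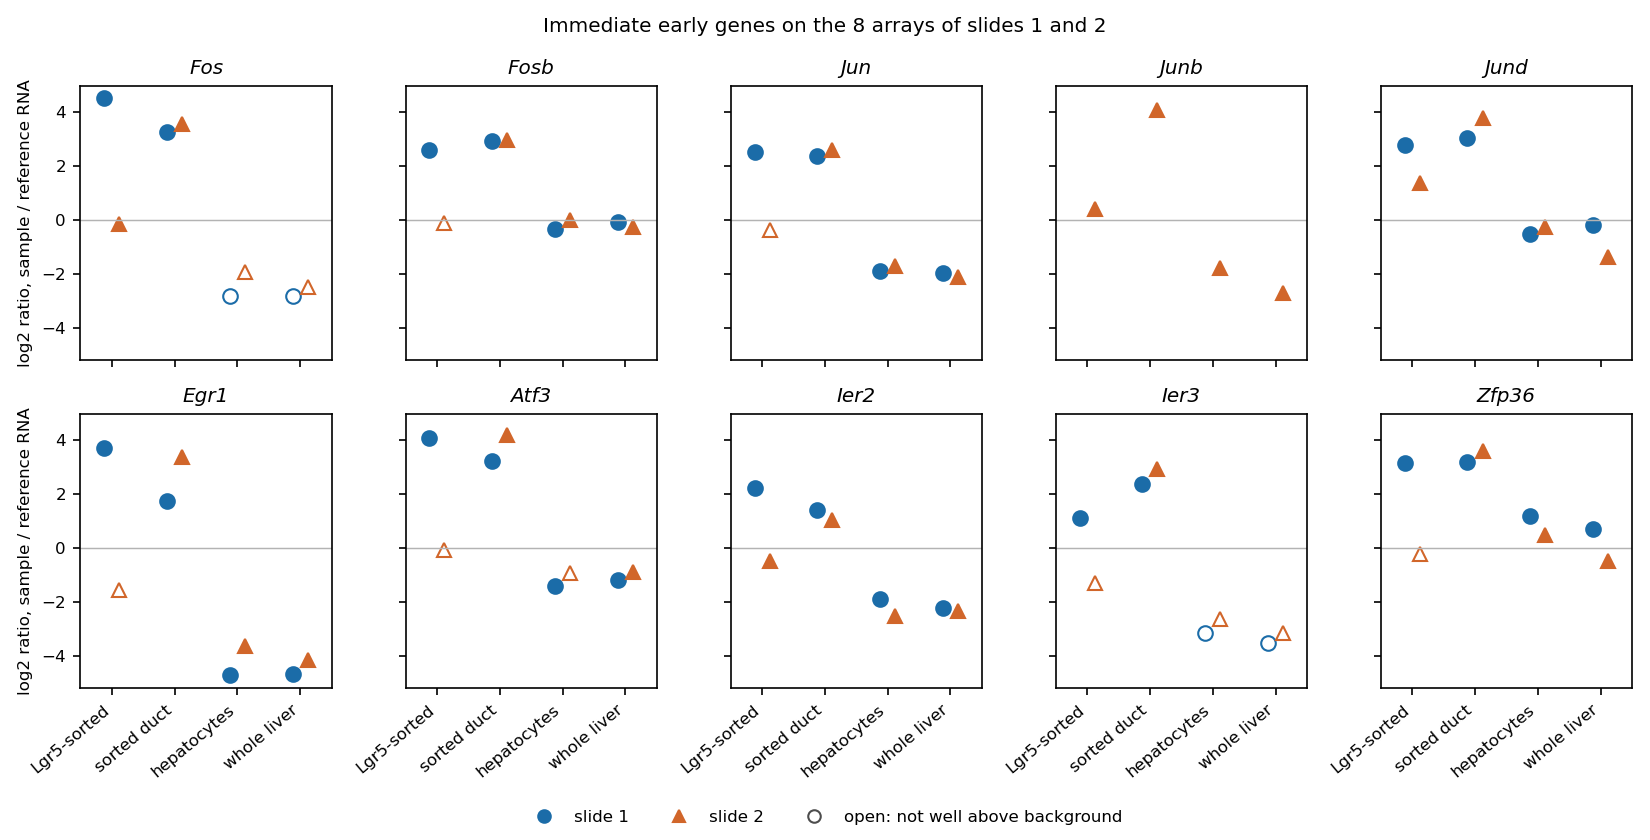
Log2 ratio of sample over reference for each of the 10 genes (vertical axis) on the 8 arrays of slides 1 (circles) and 2 (triangles), with open symbols where the Cy3 signal was not well above background. Both sorted duct arrays lie above all hepatocyte and whole liver arrays in every panel, and the Lgr5-sorted array of slide 2 lies below that of slide 1, with Fos at -0.15 against 4.49; Junb's spot was left out on slide 1.

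Fos family proteins bind DNA as AP-1 only together with a partner such as a Jun protein. Its probe lies at chr12:86817900-86817959 (mm9, plus strand), and that of Fosb at chr7:19888477-19888536 (minus strand). Fos had log2 ratios of 3.25 and 3.53 in sorted duct cells, against -2.81 and -1.94 in hepatocytes and -2.82 and -2.49 in whole liver. It was not well above background on any hepatocyte or whole liver array. A fold is therefore a bound as to the dim signal only, and it holds no sampling error. By mean Cy3 signals Fos was at least 52.2-fold higher in sorted duct cells than in hepatocytes and at least 60-fold higher than in whole liver. The fitted differences of ratios were 5.77 ± 0.97 (adjusted p = 8.25e-05) and 6.05 ± 0.97 (adjusted p = 5.13e-05). The raw median Cy3 intensities behind this on slide 1 were 8534 in sorted duct cells, against 40 in hepatocytes and 42 in whole liver. On slide 2 they were 1886 in sorted duct cells, against 43.5 in hepatocytes and 45.5 in whole liver. Fosb, a relative of Fos best known for a long-lived splice form in brain, had 2.91 and 2.97 in sorted duct cells, against -0.34 and -0.02 in hepatocytes and -0.08 and -0.27 in whole liver. The groups did not overlap, and the difference from hepatocytes was 3.12 ± 0.52, an 8.67-fold change (adjusted p = 7.36e-05).

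Jun, Junb and Jund are the partners of Fos: Jun is the strongest activator, while Junb and Jund are often described as weaker ones or as brakes. Jun had 2.35 and 2.57 in sorted duct cells, against -1.89 and -1.71 in hepatocytes, a difference of 4.26 ± 0.65 (adjusted p = 2.42e-05). Jund had 3.03 and 3.76 in sorted duct cells, against -0.53 and -0.26 in hepatocytes, a difference of 3.79 ± 0.39 (adjusted p = 1.77e-07). Both sets of arrays were far apart. The probes lie at chr4:94715864-94715923 (Jun, minus strand) and chr8:73224436-73224495 (Jund, plus strand), and the brighter Junb probe at chr8:87500881-87500940 (minus strand). The brighter Junb probe was marked as an outlier spot on all 4 arrays of slide 1 and left out there, so its fitted values rest on 1 array a group. Junb had 4.08 in sorted duct cells on slide 2, against -1.77 in hepatocytes and -2.70 in whole liver. With the outlier spots kept, its slide 1 values were 1.46 in sorted duct cells, -2.46 in hepatocytes and -3.91 in whole liver, which is the same order. Its second probe, left out only on hepatocyte array 1, had 1.55 and 3.69 in sorted duct cells against -3.13 and -2.65 in whole liver, a difference of 5.51 ± 0.50 in a fit over all probes (adjusted p = 5.98e-08).

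Atf3, a stress-induced partner of Jun that can also repress, has its probe at chr1:192994547-192994606 (minus strand). Atf3 had 3.20 and 4.17 in sorted duct cells, against -1.40 and -0.92 in hepatocytes and -1.18 and -0.90 in whole liver. The difference from whole liver was 4.72 ± 0.83 (adjusted p = 0.000138). On sorted duct array 1 the Cy5 intensity of Atf3 was 1145, against 353 to 395 on the other 3 arrays of that slide, at a Cy3 intensity of 34653, and the part of this in the ratio was not tested. Egr1, which is switched on by the same cascade as Fos, had 1.73 and 3.35 in sorted duct cells, against -4.72 and -3.63 in hepatocytes and -4.67 and -4.14 in whole liver. Its difference from hepatocytes was 6.72 ± 1.02 (adjusted p = 2.61e-05).

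Ier2, a nuclear protein of the primary response, had 1.38 and 1.03 in sorted duct cells, against -1.90 and -2.52 in hepatocytes, a difference of 3.41 ± 0.53 (adjusted p = 3.46e-05). Its second probe, which carries the accession of a different transcript, gave 0.24 ± 0.35 for the same comparison (adjusted p = 0.819) and was above background on 13 of the 28 arrays, so the probes disagree. Ier3, an NF-kappaB target that protects cells from death signals, had 2.35 and 2.93 in sorted duct cells, and was not above background on any hepatocyte or whole liver array. It was at least 26.2-fold higher in sorted duct cells than in hepatocytes (adjusted p = 3.04e-06) and at least 27.7-fold higher than in whole liver (adjusted p = 1.16e-06). Zfp36 had 3.17 and 3.60 in sorted duct cells, against 1.19 and 0.49 in hepatocytes and 0.68 and -0.50 in whole liver. Its difference from hepatocytes, 2.54 ± 0.67, was the smallest of the 10 (adjusted p = 0.00566). Zfp36 was the only member to lose its call against hepatocytes under an alternative. It did so with Agilent's own log ratios (adjusted p = 0.0644), on the 8 arrays of slides 1 and 2 with slide as a block (0.0831), without sorted duct array 2 (0.0503) and without hepatocyte array 2 (0.0603). Its second probe gave 1.31 ± 0.29 (adjusted p = 0.00134).

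The probes of Ier2, Ier3 and Zfp36 lie at chr8:87185211-87185245 (minus strand), chr17:35959528-35959587 (plus strand) and chr7:29162132-29162191 (minus strand).

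Within slide 1, 9 of the 9 measured members were at least 1 higher in sorted duct cells than in hepatocytes, where 11.8% of all genes were, with a median difference of 4.24. Within slide 2 it was 10 of 10, where 13% of all genes were, with a median of 4.69. On the 8 arrays with slide as a block, 9 of 10 members were called against hepatocytes and 10 of 10 against whole liver, Junb among them with 1 array a group. There 2132 genes in all were called higher against hepatocytes and 1931 against whole liver.

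Other cell types moved with this comparison. In sorted duct cells against hepatocytes, 11 of 12 hepatocyte genes were lower, while 9 of 12 bile duct, 9 of 10 endothelial and 8 of 10 stellate cell and fibroblast genes were higher. The mean log2 ratio of the endothelial list was 3.36 and 4.61 in sorted duct cells, against 1.11 and 1.03 in hepatocytes, and that of the stellate and fibroblast list was 1.67 and 2.18 against -1.89 and -2.02. Their part in the levels of the immediate early genes was not tested.

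Isolated hepatocytes, which also went through an isolation, did not pass the test for any member against whole liver. With limma, 0 of 10 members were called, where 0.75% of all genes were called in either direction, and 0 of 10 had an unadjusted p below 0.05. Fos, Egr1 and Atf3 had differences of 0.28 ± 0.97, 0.23 ± 1.02 and -0.12 ± 0.83, and the 10 ran from -0.12 (Atf3) to 0.93 (Junb) with a median of 0.26. The standard errors ran from 0.39 (Jund) to 1.02 (Egr1).

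In Lgr5-sorted cells the 2 arrays stood apart. Fos had 4.49 on slide 1 and -0.15 on slide 2, against -2.82 and -2.49 in whole liver. Egr1 had 3.69 and -1.57, Atf3 had 4.05 and -0.07, and Zfp36 had 3.12 and -0.23 on slides 1 and 2. On slide 1 all 10 members were well above background, the left-out Junb spot included, and on slide 2 only 4 were: Fos, Junb, Jund and Ier2. Array 1 exceeded array 2 by over 2 in 8 of the 9 members measured on both, which was true of 1.04% of all genes. The exception was Jund, with 2.75 and 1.36. The median gap between the arrays was 2.88 for the members and 0.29 for all genes, against 0.42 and 0.21 in sorted duct cells.

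Set against whole liver, 9 of 10 members were called higher in Lgr5-sorted cells, where 12% of all genes were. Egr1 differed by 5.46 ± 1.02 (adjusted p = 0.000296), Jund by 2.84 ± 0.39 (adjusted p = 9.05e-06) and Ier2 by 3.15 ± 0.53 (adjusted p = 0.000102). Fos differed by 4.83 ± 0.97 (adjusted p = 0.000606) and Ier3 by 3.23 ± 0.71 (adjusted p = 0.00131). By mean Cy3 signals Fos was 25.3-fold and Ier3 8.08-fold above the dim whole liver signal. Within slides 1 and 2, Fos differed by 7.31 and 2.34 and Ier3 by 4.61 and 1.85, so those folds do not bound single arrays. Fosb was at the edge, with overlapping arrays and 1.40 ± 0.52 (adjusted p = 0.0498), and Zfp36 had 1.36 ± 0.67 (adjusted p = 0.158). Fewer members were called without Lgr5-sorted array 1, where Fos differed by 2.51 and Zfp36 by -0.32. Without array 2, Fos differed by 7.15 and Zfp36 by 3.03. Within slide 1, 9 of 9 members were at least 1 higher, where 11.8% of all genes were, with a median of 4.46. Within slide 2 it was 7 of 10, where 14.2% of all genes were, with a median of 1.85. On the 8 arrays with slide as a block, 5 of 10 members were called: Jun, Jund, Ier2, Ier3 and, with 1 array a group, Junb. In that fit 2007 genes in all were called higher, against 2522 over all arrays. There Fos had an adjusted p of 0.0567, Egr1 of 0.0728, Atf3 of 0.155 and Fosb of 0.26.

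These calls changed with the processing. With Cy3 alone, scaled to each array's 75th percentile, which drops both the reference channel and the loess step, 2 of 10 members were called (Fos and Egr1), Jund turned to -0.83, and the median of all genes moved to 0.43. Under that scaling 294 genes were called higher and 4186 lower, against 2522 higher and 1984 lower with the ratios. On slide 2 the raw Cy3 intensity of Jund was 496 in Lgr5-sorted cells, against 1319 in whole liver, on an array dimmer throughout.

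Compared with sorted duct cells, 4 of 10 members were called lower in Lgr5-sorted cells and none higher, where 5.37% of all genes were lower. They were Fosb (-1.72 ± 0.52, adjusted p = 0.0259), Junb (-3.68 ± 0.48, adjusted p = 6.15e-05), Jund (-1.34 ± 0.39, adjusted p = 0.0206) and Ier3 (-2.75 ± 0.71, adjusted p = 0.00958). The count depended on Lgr5-sorted array 2, as the differences within each slide show. On slide 1 the median difference was 0.14, with Fos 1.24 and Egr1 1.96 higher in the Lgr5-sorted cells. On slide 2 all 10 were at least 1 lower, where 7.94% of all genes were, with a median of -3.68. Junb's second probe gave -0.83 ± 0.50 (adjusted p = 0.378). The calls also depended on sorted duct array 2. On the 8 arrays with slide as a block 1 of 10 was called lower, where 765 genes in all were. It was Junb, whose value there rests on 1 array a group.

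**Figure D2:**
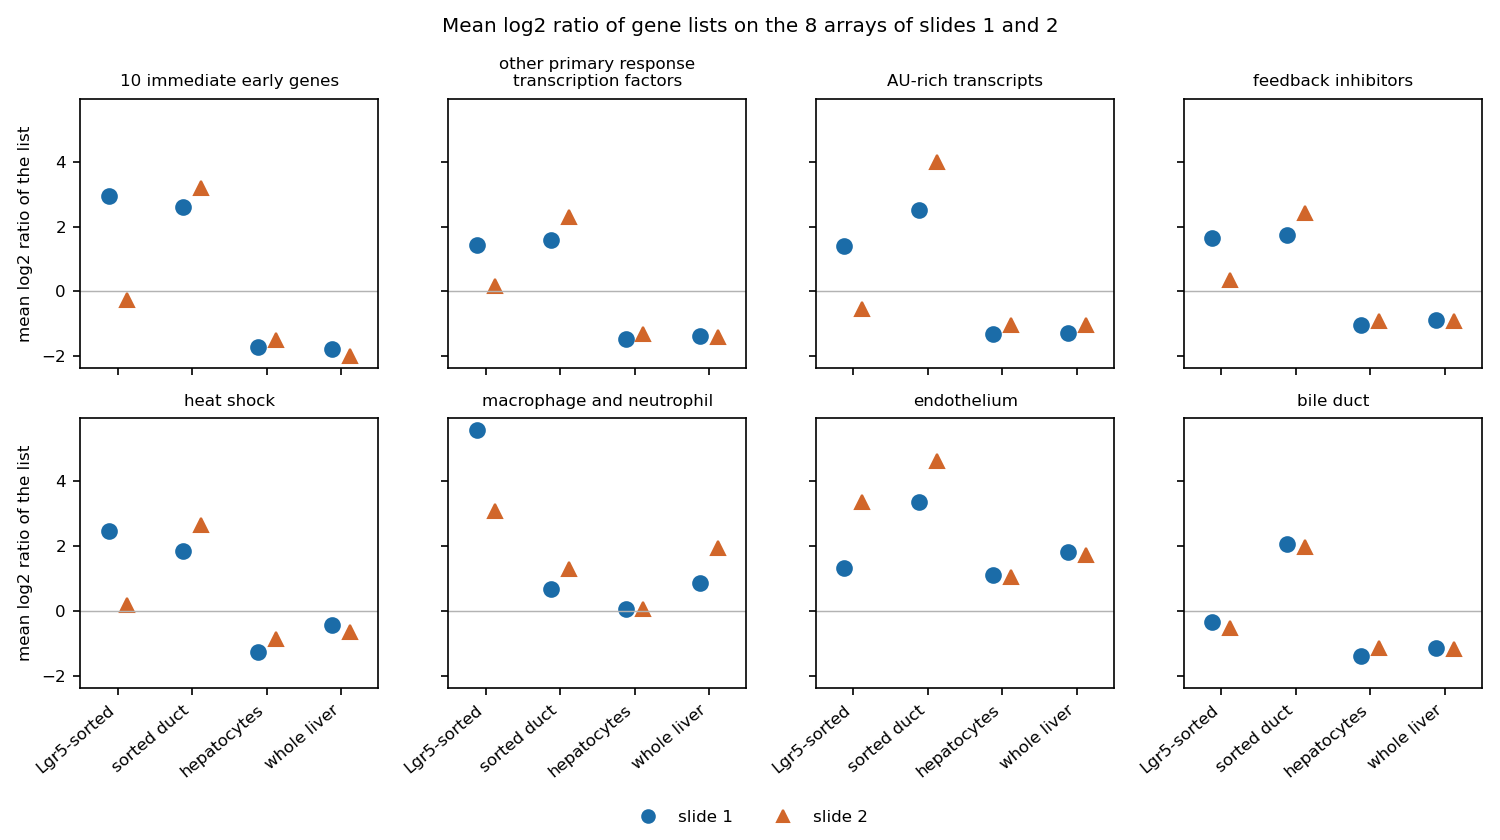
Mean log2 ratio of the immediate early genes and of 7 other gene lists (vertical axis) on the 8 arrays of slides 1 (circles) and 2 (triangles). In Lgr5-sorted cells the immediate early, heat shock and macrophage lists were lower on slide 2 and the endothelial list was higher, while both sorted duct arrays had similar values for the immediate early genes, 2.60 and 3.20; the slide 1 means leave out Junb.

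Other lists separated the Lgr5-sorted arrays as well. The macrophage and neutrophil list averaged 5.56 on array 1 and 3.08 on array 2, the endothelial list 1.32 and 3.35, and the heat shock list 2.45 and 0.16. Hspa1a, the inducible heat shock protein, had 8.86 on array 1 and 3.84 on array 2. All 11 macrophage and neutrophil genes tested were above background on array 1 and 7 on array 2. The part of cell content in the gap between the arrays was not tested.

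Most other primary response lists also rose in sorted duct cells, but they were chosen with earlier results of these data known. Against hepatocytes, 11.9% of all genes were called higher in sorted duct cells. In sorted duct cells against hepatocytes, 16 of 19 other primary response transcription factors were called higher and none lower, with a median of 3.35. Cebpd, an acute phase factor, differed by 6.94 ± 0.35 (adjusted p = 1.16e-11) and Klf4, a zinc finger factor, by 6.54 ± 0.47 (adjusted p = 1.2e-09). Of the feedback inhibitors, 17 of 21 were higher and none lower, with a median of 3.15. They were led by Tnfaip3 (5.75 ± 0.68, adjusted p = 1.04e-06) and Nfkbia (5.57 ± 0.58, adjusted p = 4.75e-07), both brakes on NF-kappaB. Of the other AP-1 subunits and partners, 7 of 11 were higher and none lower, with a median of 2.19, Maff leading at 5.78 ± 0.49 (adjusted p = 1e-08). Of the secreted and cytoskeletal primary response genes 11 of 14 were higher, with Hbegf, a ligand of the EGF receptor, at 5.30 ± 0.54 (adjusted p = 1.43e-07). By contrast, 2 of 15 upstream kinases and factors were higher, Elk3 (3.97 ± 0.59, adjusted p = 3.2e-05) and Rps6ka3 (2.24 ± 0.27, adjusted p = 1.48e-06), and their median was 0.28.

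All 12 transcripts tested that are known targets of Zfp36 were called higher in sorted duct cells against hepatocytes, where 11.9% of all genes were. Their median was 4.32. Il6, a cytokine that hepatocytes respond to in regeneration, was at least 321-fold higher (adjusted p = 1.71e-09), and Cxcl1, a neutrophil attractant, differed by 7.62 ± 0.81 (adjusted p = 2.55e-07). In Lgr5-sorted cells against whole liver 6 of 12 were higher, where 12% of all genes were, with a median of 1.20. Against sorted duct cells 10 of 12 were lower, where 5.37% of all genes were, with Il6 at -7.15 ± 0.58 (adjusted p = 8.46e-08).

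In Lgr5-sorted cells against whole liver, 11 of 19 other primary response factors and 15 of 21 feedback inhibitors were higher. There 12% of all genes were higher, and 1 of the inhibitors was lower. Hbegf stands in both the secreted list and the list of transcripts bound by Zfp36. Heat shock genes moved too, 8 of 10 being higher in sorted duct cells against hepatocytes, where 11.9% of all genes were. Their median was 3.73. Hspa1a was at least 735-fold higher (adjusted p = 2.94e-07), with log2 ratios of 6.82 and 8.88 in sorted duct cells and no hepatocyte array above background. Between isolated hepatocytes and whole liver, 0 of 10 heat shock genes, 0 of 19 other primary response factors and 1 of 21 feedback inhibitors were called.

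Livers damaged with CCl4 gave few calls among the members. On day 3, 1 of 10 members was called higher against the undamaged livers (the mean of the adult liver and whole liver groups), where 5.04% of all genes were, and none was lower. The call was Jund, with 0.67 and 0.57 on day 3, against -0.21 and -0.23 in adult liver and -0.21 and -1.37 in whole liver (1.13 ± 0.34, adjusted p = 0.0284). Jund lost its call in 5 of the 6 fits that left out 1 array each, the exception being the fit without whole liver array 1, and against adult liver alone it was 0.85 (adjusted p = 0.175). Egr1 had -1.89 and -2.06 on day 3, against -4.35 and -4.34 in adult liver and -4.67 and -4.14 in whole liver. Those groups did not overlap, but the difference of 2.40 ± 0.89 did not pass (adjusted p = 0.0767). That standard error is pooled over all groups. Egr1 had an SD of 0.12 on day 3, 0.01 in adult liver, 0.37 in whole liver and 3.72 in Lgr5-sorted cells. Fos had -3.30 and -3.50 on day 3, within the range of the undamaged livers, but that range is limited by spots near background. It was above background on both day 3 arrays, on 1 of 2 adult liver arrays and on neither whole liver array. With Agilent's own log ratios Fos had -4.18 and -4.45 on day 3. Those of adult liver were -6.65 and -5.52, and those of whole liver -6.27 and -6.05. Of the other primary response factors 3 of 19 were called higher, among them Klf2, a factor of endothelial cells, with 2.83 ± 0.42 (adjusted p = 9.4e-05), and of the transcripts bound by Zfp36 1 of 12, Cxcl1 (2.39 ± 0.70, adjusted p = 0.0248). All 4 CCl4 arrays lay on 1 slide that held no undamaged liver, so slide and treatment cannot be told apart here. On that slide, between days 13 and 3, 0 of 10 members were called, where 5.62% of all genes were in either direction, and 1 of 10 had an unadjusted p below 0.05. Egr1 had -4.57 and -4.55 on day 13, against -1.89 and -2.06 on day 3, a difference of -2.59 ± 1.02 (adjusted p = 0.151).

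The undamaged liver groups, whole liver and adult liver, had 0 of 10 members called between them, where 6.5% of all genes were in either direction, and 0 of 10 at an unadjusted p below 0.05. The largest difference was that of Fos, 1.31 ± 0.97 (adjusted p = 0.447), a gene not above background in whole liver.

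Against sorted duct cells, EM organoids had 9 of 10 members called lower, where 14% of all genes were, with a median of -3.86. Egr1 had -2.89 and -2.60 in EM organoids, against 1.73 and 3.35 in sorted duct cells (-5.29 ± 1.02, adjusted p = 0.000336). Zfp36 had -1.55 and -1.43 in EM organoids, against 3.17 and 3.60 in sorted duct cells (-4.88 ± 0.67, adjusted p = 9.37e-06), and Fosb had -1.80 and -1.95, against 2.91 and 2.97 (-4.81 ± 0.52, adjusted p = 4.7e-07). Both were above background on 1 of the 2 EM arrays. In the other primary response lists, 14 of 19 other primary response factors, 15 of 21 feedback inhibitors and 10 of 11 other AP-1 subunits and partners were lower and none higher. Of the secreted and cytoskeletal genes 9 of 14 were lower and 1 higher, and of the transcripts bound by Zfp36 10 of 12 were lower and 1 higher. For Ier3 the arrays gave 1.43 and 1.55 in EM organoids, against 2.35 and 2.93 in sorted duct cells. That difference, -1.16 ± 0.71, did not pass (adjusted p = 0.217), and with Cy3 alone it turned to 0.47, a scaling that moved the median of all genes to -0.93. Slides and scan days differed between these groups, so slide and group cannot be told apart. Of the bile duct genes 5 of 12 were higher in EM organoids, and 10 of 10 endothelial and 9 of 10 stellate and fibroblast genes were lower.

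Against adult liver, EM organoids had 4 members higher and 1 lower, where 14.4% of all genes were higher and 17.6% lower. Ier3 had 1.43 and 1.55 in EM organoids, against -4.42 and -4.10 in adult liver, a 53.6-fold difference (5.74 ± 0.71, adjusted p = 1.28e-06). Junb had 0.69 and 0.49, against -2.32 and -1.69 (2.60 ± 0.34, adjusted p = 1.01e-05). Fos had -0.46 and -1.22, against -4.19 and -3.74 (3.13 ± 0.97, adjusted p = 0.0122), and Jund differed by 1.21 ± 0.39 (adjusted p = 0.0154). Zfp36 was lower, with -1.55 and -1.43 in EM organoids against 0.77 and -0.28 in adult liver (-1.74 ± 0.67, adjusted p = 0.0411). Only Ier3 and Junb were called in all 4 fits that left out 1 array each, and the count of members called was 2 without adult liver array 1 and 3 without either EM array. Of the transcripts bound by Zfp36, 5 of 12 were higher and 1 lower, with a median of 0.61. The higher ones were led by Ccl2, a monocyte attractant, and included Csf2, a myeloid growth factor, at 4.61 ± 0.55 (adjusted p = 7.51e-07) and at least 7.69-fold (adjusted p = 8.69e-08), and the lower one was Cxcl1, at least 4.11-fold lower (adjusted p = 0.00845).

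For the single DM organoid array against EM organoids, 0 of 10 members were called, where 10.2% of all genes were in either direction, and 2 of 10 had an unadjusted p below 0.05. These were Jun, with -2.55 in the DM organoid against -0.94 and -0.64 in EM organoids (-1.76 ± 0.79, adjusted p = 0.173), and Jund, with 2.02 against 0.94 and 1.03 (1.03 ± 0.48, adjusted p = 0.189). Egr1 had -5.17 in the DM organoid, against -2.89 and -2.60 in EM organoids (-2.42 ± 1.26, adjusted p = 0.254). Ier3 stayed close, at 1.36 against 1.43 and 1.55. The DM array shared its slide with EM array 2. With no DM replicate, this test assumes that DM varies like the other groups.

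**Figure D3:**
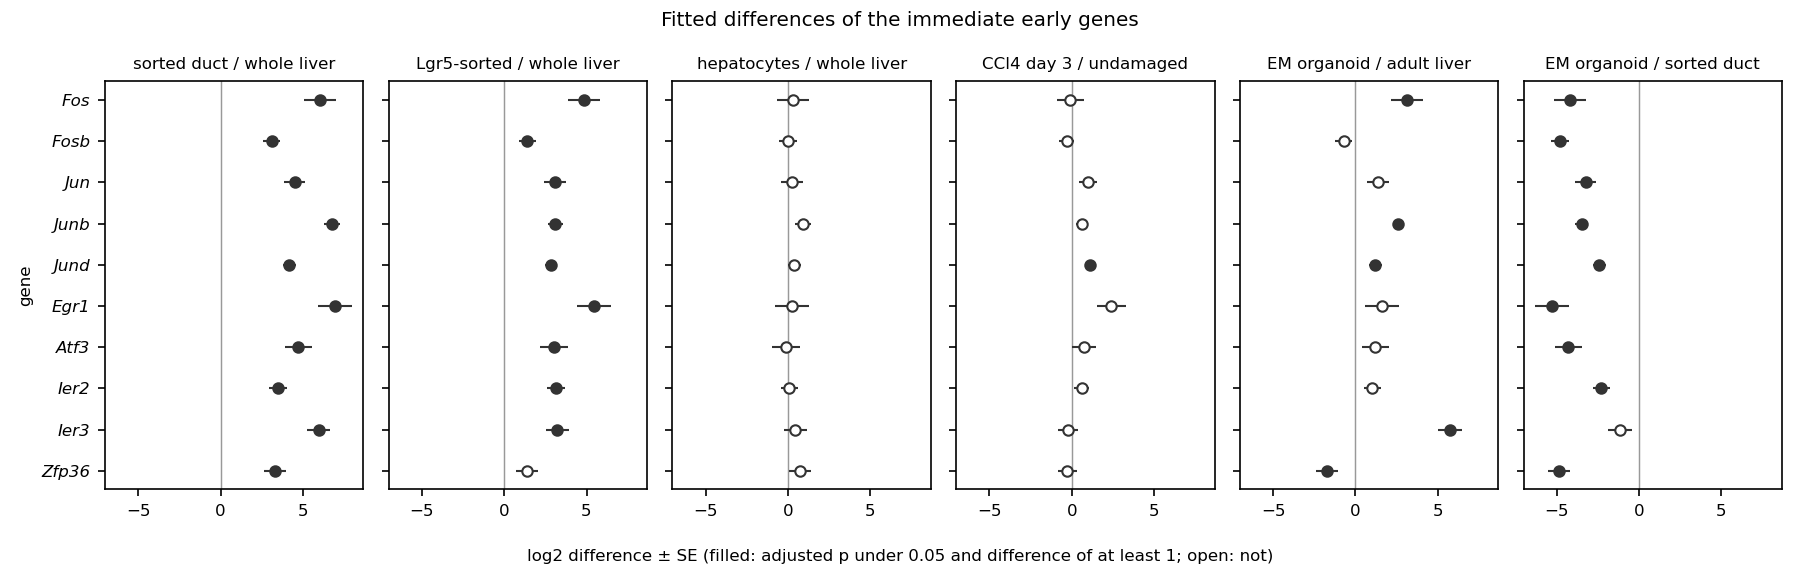
Fitted log2 differences (horizontal axis) with standard errors for the 10 genes in 6 comparisons, filled where called. All 10 genes are called in sorted duct cells against whole liver and none in hepatocytes, and Ier3 is the only member not called between EM organoids and sorted duct cells.

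Across the 13 groups, Lgr5-sorted cells ranked second for 8 of the 10 genes and behind both organoid groups for Junb and Ier3. Behind sorted duct cells, Ier3 was next highest in EM organoids (mean 1.49) and Junb in the DM organoid (1.11). For Junb, the Lgr5-sorted value (0.41) is slide 2 alone, since the slide 1 spot was left out. Its second probe placed Lgr5-sorted cells second, at 1.79 against 0.58 in the DM organoid and 0.46 in EM organoids. Most neighbours in the order of the 13 groups overlapped: of 120 neighbouring pairs over the 10 genes, those with the sorted cells included, the arrays of 87 overlapped. Jund had the fewest overlaps, in 6 of its 12 neighbouring pairs, and Zfp36 the most, in 11 of 12. The shares of these ranks and overlaps over all genes were not computed. Groups with 1 array, such as DM, can overlap less, which limits the counts. Fos and Ier3 were lowest in liver 13 days after CCl4 (-4.10 and -4.36), Fosb and Zfp36 in EM organoids (-1.88 and -1.49) and Jund in whole liver (-0.79). Levels of different genes are not compared, since each is a ratio to the reference RNA on its own probe.

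**Figure D4:**
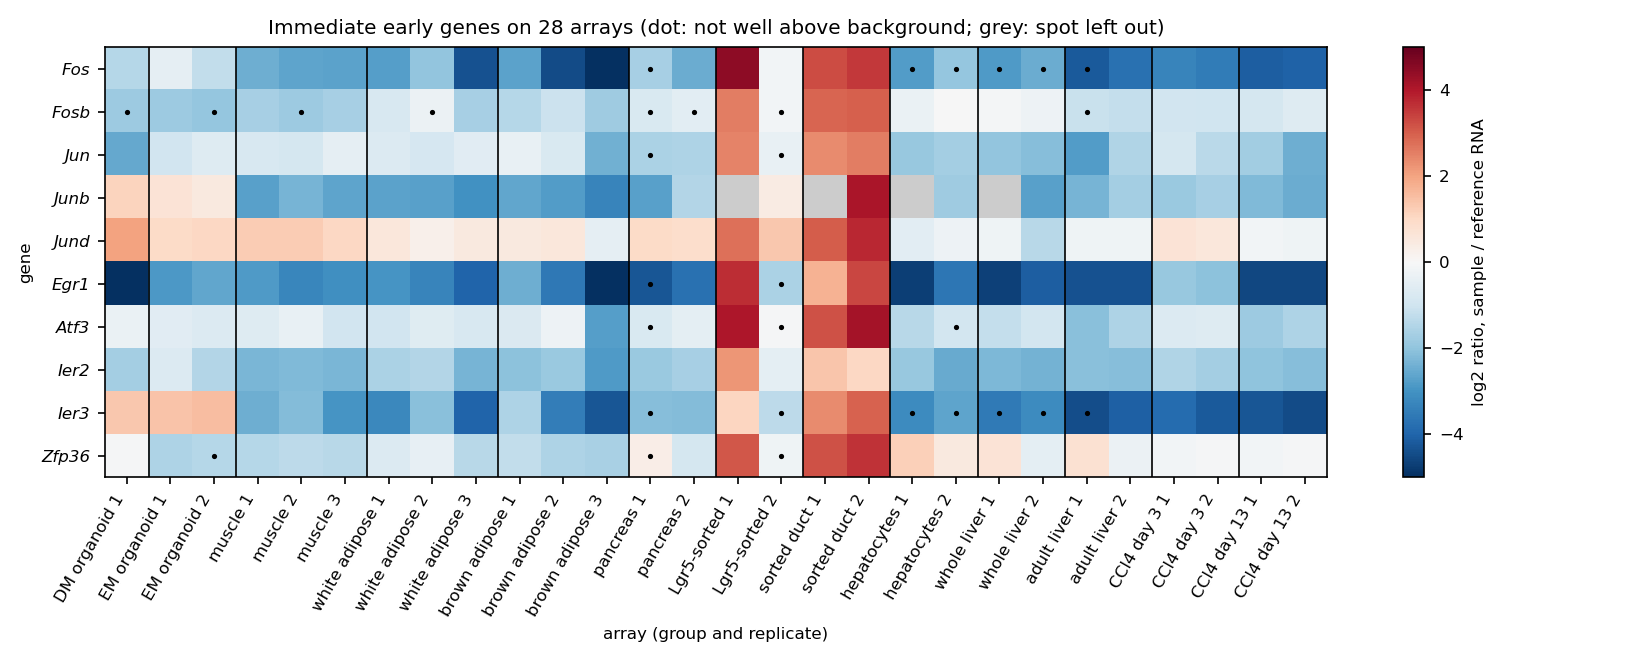
Colour map of the log2 ratio of sample over reference for the 10 genes (rows) on the 28 arrays (columns), dots where Cy3 was not well above background and grey where the spot was left out. High levels of all members, where measured, are seen in sorted duct cells and on Lgr5-sorted array 1, and outside the sorted cells levels above 1 are seen for Ier3 (1.43 and 1.55 in EM, 1.36 in DM), Jund (2.02 in DM, 1.03 on 1 EM array, 1.03 to 1.27 in muscle), Junb (1.11 in DM) and Zfp36 (1.19 on 1 hepatocyte array).

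Among other tissues, muscle had Jund at 1.27, 1.27 and 1.03, against -0.21 and -0.23 in adult liver (1.42 ± 0.36, adjusted p = 0.00219). Jun (1.45 ± 0.59, adjusted p = 0.043) and Ier3 (1.74 ± 0.65, adjusted p = 0.0274) were also higher in muscle and Zfp36 lower (-1.61 ± 0.62, adjusted p = 0.0316), which made 3 members higher and 1 lower, where 19.8% of all genes were higher and 15.8% lower. In pancreas Jund and Ier3 were called higher (1.14 ± 0.39, adjusted p = 0.0234, and 2.11 ± 0.71, adjusted p = 0.0211), where 16.3% of all genes were. Brown adipose tissue had 1 of 10 members called, Zfp36 (-1.72 ± 0.62, adjusted p = 0.0272), where 13.3% of all genes were lower. White adipose tissue had 0 of 10 called by limma, where 27.8% of all genes were called in either direction, and 2 of 10 at an unadjusted p below 0.05. None of these tissues shared a slide with adult liver, so slide and tissue cannot be told apart.

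Replicates of a tissue could differ widely in these genes. In brown adipose tissue Egr1 had -2.43, -3.57 and -4.98, Fos had -2.66, -4.49 and -5.07, and Atf3 had -0.72, -0.25 and -2.76. Of the 10 members, 5 spanned over 2 in that group, where 0.955% of all genes did. Replicate 3 was the lowest of the 3 for 10 of 10 members, and for 39.7% of all genes. Replicates 2 and 3 lay on 1 slide. In white adipose tissue 1 of 10 members, Fos, spanned over 2, with -2.75, -1.98 and -4.34, where 3.45% of all genes did.

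Genes with the most similar pattern were sought by Pearson's r over the 13 group means, which share the reference RNA and the sorted cells as their high end. Outside the 10 members, the genes nearest to Fos were Hspa1a (r = 0.967), Tnfaip3 (0.965) and the receptor gene Tlr2 (0.939). Nearest to Ier3 were Ankrd1 (0.962), Hbegf (0.961) and Myc (0.955), with Ankrd1 at 1.59 in sorted duct cells and 1.45 in EM organoids, against -4.37 in adult liver. Nearest to Jund were Hmga1 (0.974), Sertad1 (0.952) and Mllt6 (0.935). Among the members themselves, Fos was nearest to Atf3 (0.95) and Ier2 (0.94), and r was lowest for Fosb with Ier3 (0.38) and for Ier3 with Zfp36 (0.40).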

How the data were processed

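Two-colour Agilent arrays (28, in 13 groups) were read from the deposited scanner files. Per the file headers these hold median spot and background intensity in both channels, flags, and a log10 ratio of Cy5 over Cy3 written by Agilent Feature Extraction (10.5.1.1 in the headers, 8.5.1.1 in the submitters' processing notes). The deposited intensities were background-corrected with normexp (offset 50) and loess-normalized within arrays in R 4.3.3 with limma 3.58.1, and turned to log2 of Cy3 over Cy5. Outlier spots (0.495% of spots) were left out. Probes entered the tests when 2 or more arrays had a Cy3 signal well above background, and the brightest probe stood for a gene.

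One limma model with 13 group means was fitted to all arrays and all 21070 genes, with Benjamini-Hochberg adjustment over all of them. Where no array of the dimmer group was above background, a fold is given as a lower bound. It is taken against each dim array's own Cy3 signal or the lowest signal well above background on that array, whichever was higher. Such a fold is a mean over arrays, is a bound as to the dim signal only and holds no sampling error. The adjusted p beside it is that of the fitted difference of ratios. Counts of members at an unadjusted p below 0.05 are given without the share of all genes, which was not computed. The number of arrays limits the precision. In simulated data, 88.1% of genes changed by 2 (log2) between sorted duct cells and hepatocytes were called, and 31.9% of those changed by 1. The changed genes were 200 drawn at random, and all others were left unchanged. In the arrays, 2507 genes were called higher and 2380 lower in that comparison. These shares are therefore not the power of that test, nor those of the members. Arrays are labelled biological replicates.

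The members and gene lists were chosen with earlier results of these data known. All 10 members are named; other genes are the 2 called genes with the largest rise or fall in a list, and the 3 with the most similar pattern. Dusp5, Elk1 and Ly6g were listed but not tested. Same-numbered arrays of slides 1 and 2 had deviations that correlated at 0.06 to 0.44. Positions are mm9 for probes and GRCm38.p6 for RefSeq promoters. No genome was used.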

Additional observations from a re-analysis of the deposited data

How the results depend on the processing

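The count of members called in sorted duct cells ran from 8 to 10 against hepatocytes and from 9 to 10 against whole liver over the fits that left out 1 array each, and all these calls were in the same direction. Over single members, 1520 values under an alternative counted as unchanged, 57 lost a call, 22 gained one and 53 changed sign. Unchanged values kept their direction and their side of the threshold. Values within a slide were untested and counted as unchanged when they lay within 1 standard error of the fitted difference. Another 40 within-slide values lay further from it. The cause of the changes below was not tested. Alternatives were the Agilent log ratio, Cy3 alone, no background correction, no filter, a filter of 6 arrays, the mean of a gene's probes, slide as a random block, the replicate block, the 8 arrays of slides 1 and 2, no fold minimum and, chosen after seeing the data, outlier spots kept. The DM array cannot be left out, since it is the only one.

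With the Agilent log ratio, all genes called came to 7676 in sorted duct cells against hepatocytes (4887 in the report's setting), 409 in hepatocytes against whole liver (158; 80 higher and 329 lower), 4999 in Lgr5-sorted against sorted duct cells (2396; 1481 higher and 3518 lower), 261 in whole against adult liver (1370) and 1161 in DM against EM organoids (2145; 573 higher and 588 lower). Lgr5-sorted cells against whole liver then had 2444 genes higher and 4259 lower, against 2522 and 1984. Members called were 0 on CCl4 day 3 and 3 in EM organoids against adult liver.

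With Cy3 alone, all genes called came to 32 in hepatocytes against whole liver (6 higher and 26 lower), 3632 in Lgr5-sorted against sorted duct cells (201 higher and 3431 lower), 5037 in whole against adult liver (4004 higher and 1033 lower) and 13473 in EM organoids against sorted duct cells (3625 higher and 9848 lower). The split was 861 higher and 649 lower on CCl4 day 3 and 473 and 459 on day 13 against day 3. Members called were 2 in Lgr5-sorted cells against whole liver, 10 against sorted duct cells and 1 in whole against adult liver. This scaling moved the median of all genes by between -0.93 and 0.61.

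Without background correction 2 members were called on CCl4 day 3, and with adult liver alone as the undamaged group 0 (1111 genes higher and 714 lower). Without a fold minimum the genes called were 3672 in Lgr5-sorted against sorted duct cells, 3233 on CCl4 day 3, 1820 on day 13 against day 3 and 2577 in whole against adult liver. On the 8 arrays of slides 1 and 2 with the replicate block, members called were 5 in Lgr5-sorted cells against whole liver and 1 against sorted duct cells, with 1556 genes called there and 0 in hepatocytes against whole liver. With the replicate block over all 28 arrays, or slide as a random block (correlation 0.113), 5 members were called in Lgr5-sorted against sorted duct cells, and no other comparison's count of members changed. With 2 arrays a group, the numbers are not taken to pair the samples.

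Leaving out 1 array gave 55 to 461 genes called in hepatocytes against whole liver, 776 to 894 on CCl4 day 13 against day 3 and 831 to 1518 in whole against adult liver. Members called ran from 0 to 10 in Lgr5-sorted against sorted duct cells, from 0 to 1 on CCl4 day 3 and from 2 to 5 in EM organoids against adult liver. The single members that changed sign in these fits, with their ranges, were as follows. In Lgr5-sorted cells against whole liver it was Zfp36 (-0.32 to 3.03). In hepatocytes against whole liver they were Fosb (-0.16 to 0.16), Atf3 (-0.37 to 0.12), Ier2 (-0.22 to 0.39), Fos (-0.16 to 0.71), Egr1 (-0.32 to 0.77) and Jund (-0.19 to 0.97). In Lgr5-sorted against sorted duct cells they were Fos (-3.54 to 1.1), Jun (-2.85 to 0.03), Egr1 (-4.12 to 1.15), Atf3 (-3.75 to 0.36) and Ier2 (-1.71 to 1.00). On CCl4 day 3 they were Zfp36 (-0.56 to 0.03) and Fos (-0.20 to 0.03), and on day 13 against day 3 Zfp36 (-0.05 to 0.06). In whole against adult liver they were Egr1 (-0.32 to 0.21), Jund (-1.14 to 0.02), Zfp36 (-0.75 to 0.43) and Jun (-0.52 to 0.76), and in DM against EM organoids Fosb (-0.02 to 0.13).

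Under the other settings, sign changes were Jund at -0.83 in Lgr5-sorted cells against whole liver and Ier3 at 0.47 in EM organoids against sorted duct cells (both Cy3 alone). In hepatocytes against whole liver they were Ier3 at -0.06 (Agilent), Fosb at 0.07 and Atf3 at 0.02 (Cy3 alone) and Fosb at 0.02 (no background correction). On CCl4 day 3 they were Fos at 1.81 and Ier3 at 1.54 (Agilent), Fos at 0.07 and Ier3 at 0.57 (Cy3 alone), Zfp36 at 0.01 (mean of probes), and Fos at 0.57, Fosb at 0.18 and Ier3 at 0.25 (adult liver alone). On day 13 against day 3, Zfp36 had -0.15 (Agilent), -0.13 (Cy3 alone), 0.00 (no background correction) and -0.04 (mean of probes). In whole against adult liver, Fos had -0.08, Jun -0.45 and Ier3 -0.40 (Agilent), Jun had -0.13 (Cy3 alone) and -0.01 (no background correction), and Ier2 had 0.09 (mean of probes). In DM against EM organoids Fosb had -0.25 (Agilent), -0.12 (no background correction) and -0.01 (replicate block). Signals near background limit Fos and Ier3 in hepatocytes and whole liver, and 6 of the 10 members on Lgr5-sorted array 2.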
